A study of Mus musculus with 16 samples.

Results

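Classical glucocorticoid-induced genes were followed in white and brown adipose tissue of mice that lack the glucocorticoid receptor in fat (Adipose-tissue specific GR Knockout) and of control mice. The set was given by name and comprised Fkbp5, Tsc22d3, Dusp1, Sgk1, Zbtb16, Klf9, Sult1a1, Mt1, Mt2 and Errfi1. Every array probe whose RefSeq accession mapped to these symbols was taken, which gave 14 probes for 9 of the 10 genes, among 15463 tested genes. No probe was matched to Zbtb16, and it is not analysed here. All 14 probes were well above background on all 16 arrays, so none of the 9 genes depended on the filter on dim probes. The arrays fall into 4 groups of 4, all of male mice: white fat of the knockout (AdipoKO_WAT), white fat of the control (CTL_WAT), brown fat of the knockout (AdipoKO_BAT) and brown fat of the control (CTL_BAT). The series' design text calls the control animals wild type and the arrays of a group biological replicates. No treatment was named. Age, strain, the Cre driver and the deleted exon are not given in the sources used here.

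Glucocorticoids such as corticosterone enter cells and bind the glucocorticoid receptor, a transcription factor encoded by Nr3c1 that is held in the cytoplasm by heat shock chaperones. The bound receptor moves to the nucleus and raises transcription of its targets from glucocorticoid response elements, which can lie close to the start site or far from it. The genes of the set are widely used as readouts of that response, and several of them damp it or act against inflammation. In fat, glucocorticoids act on lipid storage, lipolysis and adipokine output, and the fat cell can regenerate active hormone through Hsd11b1.

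Each level is a log2 intensity relative to the 75th percentile of its array, so 0 is the intensity of that percentile. An array had 67.3% to 77.0% of its 43379 spots well above background and none saturated, and the number of arrays limits the precision. Within groups, 9 of 24 array pairs showed differences smaller than the measurement error the scanner software assigns, and these arrays were averaged and counted as 1 sample. This left 9 distinct samples. Values are given in the order array 1, then arrays 2, 3 and 4 together, for each knockout group. They are given as arrays 1 and 4 together, then arrays 2 and 3 together, for white control, and as array 1, arrays 2 and 3 together, then array 4, for brown control. No label says which animals the arrays came from, so p-values measure the spread between these samples.

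Some samples stood apart. In the brown control sample on arrays 2 and 3, Ucp1, the uncoupling protein that defines brown fat, had a level of -0.75, against 6.61 and 8.13 in the other brown control samples and -2.44 to -0.92 in white fat. Cidea and Elovl3, also brown fat markers, stood at 2.83 and -4.66 in that sample, whereas Cox7a1 and Cox8b, mitochondrial markers shared with muscle, stood at 8.02 and 7.22. The main brown results of the set are therefore also given without it. The summed level of 13 skeletal muscle markers was 1880 to 3440 in brown knockout, 3650 to 4510 in brown control, 11.0 to 11.7 in white knockout and 3.97 to 5.10 in white control. The summed level of 20 T, B and NK cell markers was 283 in the white knockout sample on arrays 2, 3 and 4, 31.1 in the other white knockout sample, and 13.3 and 59 in white control. It was 48.2 and 156 in brown knockout and 39.8, 5.48 and 2.81 in brown control. In bulk tissue, fewer cells of a type and less RNA per cell cannot be told apart.

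Nr3c1, the targeted gene, had levels of 1.58 and 1.34 in white knockout, against 2.49 and 2.21 in white control. In brown fat its levels were 1.57 and 1.76 in knockout, against 2.53, 2.69 and 2.34 in control. The knockout samples lay below every control sample in both tissues, with a difference of -0.89 ± 0.23 in white fat and -0.85 ± 0.21 in brown fat (log2, SE), that is a signal difference of -46.1% and -44.6%. The limma adjusted p was 0.414 in white fat and 0.619 in brown fat. Without the brown control sample on arrays 2 and 3 the brown difference was -0.77. Over 20 alternatives the difference ran from -1.09 to -0.75 in white fat, and in brown fat it ran from -0.95 to -0.42. The other 3 Nr3c1 probes had differences of -1.10 to -0.23 in white fat and -0.81 to -0.35 in brown fat. Whether a probe lies in the deleted part is not given, so these values do not measure how complete the deletion was.

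With the distinct samples in the limma fit, 0 of the 9 glucocorticoid-induced genes passed an adjusted p of 0.05 in either knockout comparison, where 0.0% of all tested genes passed. At an unadjusted p below 0.05 the count was 2 of 9 in white fat, Dusp1 and Sult1a1, against 9.95% of all tested genes. The same 2 genes made up the count in brown fat, against 7.04% of all tested genes. With each of the 16 arrays counted as a sample, 5 of 9 passed the adjusted threshold in white fat, where 44.8% of all tested genes passed. These were Fkbp5 and Tsc22d3 with a higher mean in knockout, and Dusp1, Sult1a1 and Errfi1 with a lower mean. In that fit 3 of 9 passed in brown fat, where 30.6% of all tested genes passed, Fkbp5 with a higher mean in knockout and Dusp1 and Sult1a1 with a lower mean. With the replicate number as a block these counts were 5 of 9, where 46.0% of all tested genes passed, and 4 of 9, where 32.2% passed. With the slide as a random block they were 5 of 9 and 3 of 9, where 45.2% and 30.6% passed. With the slide as a fixed block 2 of 9 passed in white fat, where 1.25% passed, and 0 of 9 in brown fat. These 4 fits all count repeat arrays as samples. With distinct samples and the white knockout sample on array 1 left out, 2 of 9 passed in white fat, where 11.0% passed, and 0 of 9 in brown fat. Knockout and control samples did not overlap in 6 of 9 genes in white fat, against 40.5% of all tested genes, and in 4 of 9 in brown fat, against 34.1%. Some of these gaps were narrow. The nearest knockout and control samples stood at 1.884 and 1.919 for Errfi1 in white fat and at 1.759 and 1.765 for Klf9 in brown fat. For Mt2 in white fat they stood at 3.3815 and 3.4235.

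The set did not move one way. In white fat 6 of 9 genes had a lower mean in knockout, against 52.3% of all tested genes, with a median difference of -0.28 against -0.03 over all tested genes. In brown fat 5 of 9 had a lower mean, against 59.9% of all tested genes, with a median of -0.52 against -0.12 over all tested genes. Without the knockout samples on arrays 2, 3 and 4, 6 of 9 had a lower mean in each tissue and the medians were -0.08 in white fat and -0.13 in brown fat. Over all tested genes the medians were then -0.06 and -0.05. With the brown control sample on arrays 2 and 3 left out, the brown count was again 5 of 9. Directions are relative to the scaling of each array: without scaling the median of all tested genes was -0.23 in white fat and 0.31 in brown fat, and Sgk1 in white fat was then at -0.17. Unscaled values and counts of the knockout comparisons given below stand against these medians. In the plot of knockout differences, Sult1a1 and Dusp1 lie to the left of 0 and Fkbp5 lies to the right with the widest interval.

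**Figure D1:**
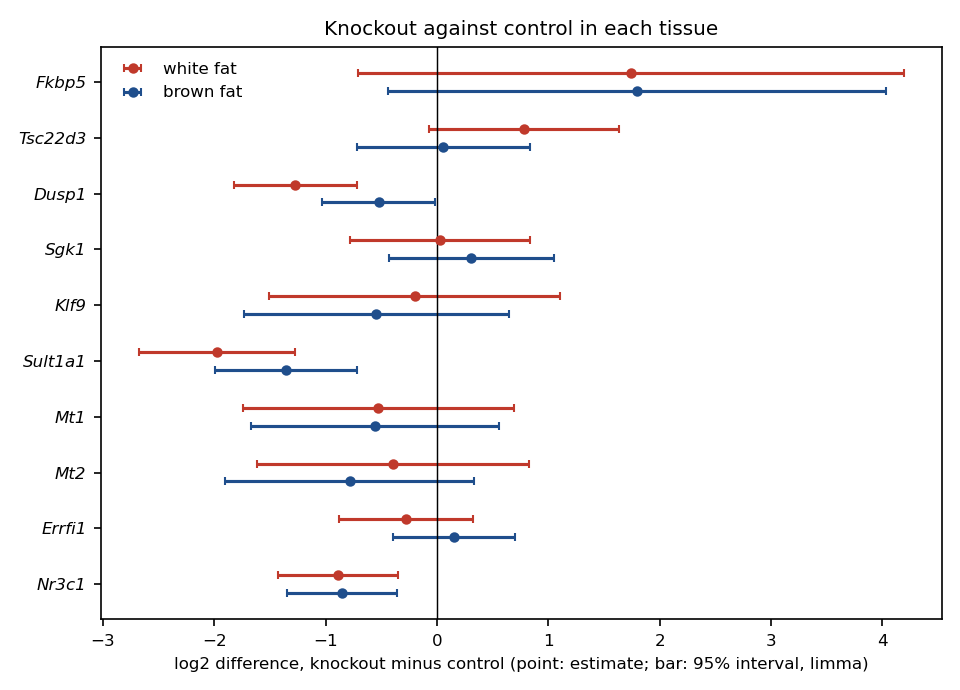
Log2 difference, knockout minus control, of each glucocorticoid-induced gene and of Nr3c1 in white fat (red) and brown fat (blue), with the 95% interval from the limma fit to 9 distinct samples. Sult1a1 stood at -1.97 and -1.35, Dusp1 at -1.27 and -0.52, and Fkbp5 at 1.74 and 1.80 with intervals that include 0.

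Fkbp5 encodes a co-chaperone that binds the receptor complex and lowers its affinity for hormone, a negative feedback on the response. Its brightest probe, A_52_P481493, had levels of -0.38 and 2.23 in white knockout, against -1.84 and 0.21 in white control. In brown fat the levels were -0.38 and 1.36 in knockout, against -1.02, -1.81 and -1.08 in control. The groups overlapped in white fat and did not in brown fat, and in each tissue the knockout sample on arrays 2, 3 and 4 was the highest. The difference was 1.74 ± 1.04 in white fat and 1.80 ± 0.95 in brown fat (log2, SE), with limma adjusted p of 0.561 and 0.619. Without the knockout samples on arrays 2, 3 and 4 it was 0.44 in white fat and 0.92 in brown fat. Without the brown control sample on arrays 2 and 3 it was 1.54 in brown fat.

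The 3 Fkbp5 probes disagreed. A_51_P383689 had levels of -2.04 and -1.59 in white knockout, against -2.62 and -2.37 in white control, and of -1.29 and -1.97 in brown knockout, against -1.92, -1.66 and -2.32 in brown control. Its difference was 0.68 ± 0.34 in white fat and 0.34 ± 0.31 in brown fat (log2, SE). A_52_P337899 ran from -3.68 to -2.73 over all samples, with differences of 0.44 ± 0.37 and 0.11 ± 0.33. A range of 4.07 log2 units over the 9 samples was seen on the brightest probe alone. The brightest probe was highest in the samples with the most lymphocyte marker signal: the 20 T, B and NK cell markers were all measured, 19 of 20 had a higher mean in white knockout and 18 of 20 in brown knockout. Without the knockout samples on arrays 2, 3 and 4, 3 of 20 had a higher mean in white knockout and 17 of 20 in brown knockout, with medians of -0.78 and 2.77. Ncr1 was the single marker not well above background, in 4 of the 9 samples. The part of these cells in the Fkbp5 values was not tested. With the mean of all 3 probes the difference was 0.95 in white fat and 0.75 in brown fat.

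**Figure D2:**
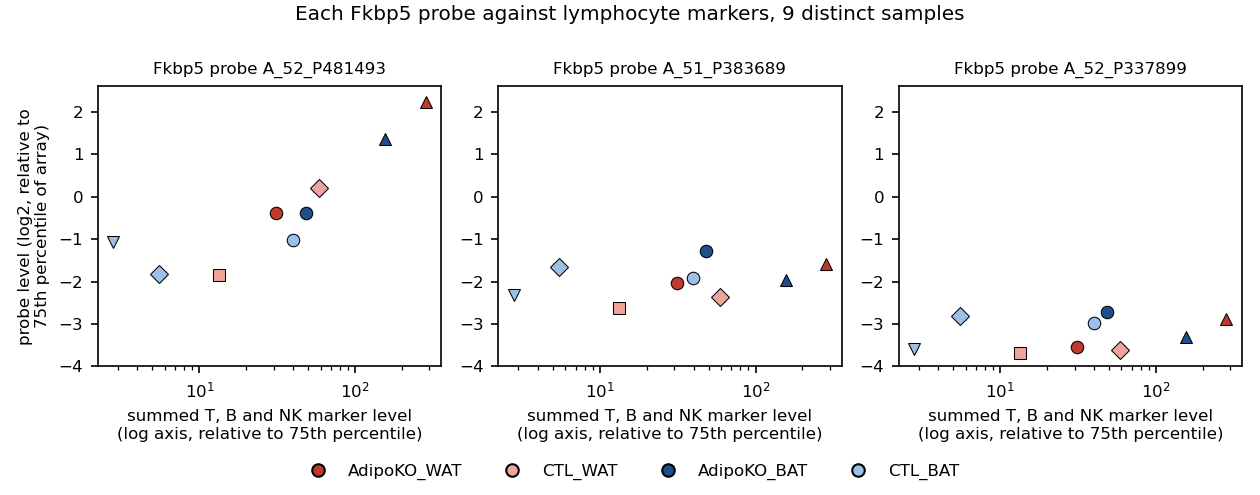
Level of each Fkbp5 probe (log2, relative to the 75th percentile of the array) in the 9 distinct samples, plotted against the summed level of 20 T, B and NK cell markers on a log axis. A_52_P481493 reached 2.23 in the white knockout sample with a marker sum of 283 and 1.36 in the brown knockout sample with a sum of 156, while the other probes stayed between -3.68 and -1.29.

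Tsc22d3 encodes GILZ, a leucine zipper protein that binds and restrains inflammatory transcription factors. Its brighter probe had levels of 2.35 and 3.07 in white knockout, against 1.68 and 2.17 in white control. Both white knockout samples were above both control samples. The difference was 0.78 ± 0.36 (log2, SE; limma adjusted p = 0.509), and 0.42 without the knockout sample on arrays 2, 3 and 4. In brown fat the levels were 2.63 and 2.97 in knockout, against 2.76, 3.10 and 2.38 in control, which overlap. The difference there was 0.06 ± 0.33, and 0.23 without the brown control sample on arrays 2 and 3. The second probe, A_52_P600518, gave differences of 0.32 ± 0.40 in white fat and -0.06 ± 0.37 in brown fat. The 95% interval was -0.07 to 1.63 in white fat and -0.72 to 0.83 in brown fat, and both hold losses as well as gains.

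Dusp1 encodes a phosphatase that switches off MAP kinases, and it is induced by glucocorticoids as well as by stress and growth signals. Its probe had levels of 0.79 and 0.56 in white knockout, against 1.99 and 1.91 in white control. Both knockout samples lay more than 1 log2 unit below both controls. The difference was -1.27 ± 0.23 (log2, SE), that is a signal difference of -58.6%, and it ranked 47 by p among 15463 genes, with a limma adjusted p of 0.284. Without the knockout sample on arrays 2, 3 and 4, in which lymphocyte markers were high, the difference was -1.16. On the slide that held both groups it was -1.32. In brown fat the levels were 1.65 and 1.57 in knockout, against 1.84, 2.26 and 2.30 in control. The groups did not overlap but were closer than in white fat, with a difference of -0.52 ± 0.21 (limma adjusted p = 0.619). It was -0.46 without the brown control sample on arrays 2 and 3. On the authors' values without scaling between arrays it was -0.09, where the median of all tested genes was 0.31. The knockout effect in brown fat minus that in white fat was 0.75 ± 0.32 (unadjusted p = 0.0505 and adjusted p of 1 in limma).

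The Dusp1 promoter window (RefSeq, GRCm38.p6, chr17:26508423-26508722, minus strand, from 250 bases before to 50 after the start site) is shown because it holds a full cAMP response element, TGACGTCA, in capitals. The element starts at position -143 relative to the start site. This motif, searched on both strands, was present in 1.79% of 32851 windows of the same length, and Errfi1 was the other gene of the set with a match. The window held no match to the glucocorticoid motifs described with Sgk1.
Dusp1: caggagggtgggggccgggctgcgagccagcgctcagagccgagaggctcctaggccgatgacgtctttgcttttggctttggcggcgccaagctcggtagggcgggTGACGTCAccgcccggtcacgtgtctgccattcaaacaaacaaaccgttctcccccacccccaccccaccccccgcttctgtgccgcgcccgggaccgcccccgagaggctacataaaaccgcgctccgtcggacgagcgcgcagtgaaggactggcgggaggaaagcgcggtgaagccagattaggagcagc

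Of 9 other MAP kinase phosphatases tested, 6 had a lower mean in white knockout, with a median of -0.05. In brown knockout 8 of 9 had a lower mean, with a median of -0.43, or 4 of 9 without scaling between arrays and 8 of 9 without the brown control sample on arrays 2 and 3. None passed the limma threshold. Dusp9 had the smallest p in white fat, with levels of -4.06 and -3.93 in knockout against -2.66 and -3.21 in control, a difference of -1.06 ± 0.41 (limma adjusted p = 0.485). Dusp8 had the smallest p in brown fat, with levels of 6.29 and 6.35 in knockout against 6.89, 6.84 and 6.79 in control. Dusp1 is also an immediate early gene, and of 21 tested immediate early genes 11 had a lower mean in each tissue and 10 a higher mean, with medians of -0.0045 in white fat and -0.0075 in brown fat on the log2 scale. Fos had levels of -2.82 and -3.20 in white knockout, against -0.69 and -1.84 in white control. Ccn1, a matricellular protein gene, had levels of 0.21 and -0.43 in white knockout, against 1.86 and 1.33 in white control, and of 0.99 and 0.25 in brown knockout, against 1.44, 1.38 and 1.22 in brown control. Myc, a growth transcription factor gene, had the smallest p of the list in brown fat, with levels of 1.51 and 1.38 in knockout, against 0.33, 0.28 and -0.25 in control. Its brown difference was 1.32 ± 0.44 (log2, SE; limma adjusted p = 0.619).

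Errfi1 encodes MIG6, an inhibitor of receptors of the EGF receptor family. Its levels were 1.88 and 1.44 in white knockout, against 1.92 and 1.96 in white control. In brown fat they were 1.90 and 1.84 in knockout, against 1.43, 1.81 and 1.93 in control. White knockout lay below white control, most clearly in the sample on arrays 2, 3 and 4, and the brown groups overlapped. The differences were -0.28 ± 0.25 in white fat and 0.15 ± 0.23 in brown fat (log2, SE), with limma adjusted p of 0.669 and 0.802. Without the knockout sample on arrays 2, 3 and 4 the white difference was -0.06, and the brown difference was 0.19 without the brown control sample on arrays 2 and 3.

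Sgk1 encodes a serine/threonine kinase that promotes ion transport and cell survival and is a standard target of both corticosteroid receptors. Its levels were 2.17 and 2.42 in white knockout, against 2.01 and 2.52 in white control. In brown fat they were 3.82 and 3.48 in knockout, against 2.86, 3.44 and 3.72 in control. The groups overlapped in both tissues. The difference was 0.03 ± 0.34 in white fat, with a 95% interval of -0.78 to 0.84, and 0.31 ± 0.31 in brown fat, with a 95% interval of -0.43 to 1.05 (log2, SE). Both intervals hold losses as well as gains. Without the brown control sample on arrays 2 and 3 the brown difference was 0.36.

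Sgk1 has 6 start sites in the promoter table, and a window (RefSeq, GRCm38.p6, chr10:21993640-21993939, plus strand) is shown because it holds a full palindromic glucocorticoid response element in capitals, the letters AGAACA followed after any 3 bases by its reverse complement TGTTCT. The element starts at position -189 relative to the start site. Only 3 of 32851 windows (0.00913%) held this motif on either strand. The shorter core, ACANNNTGT, which lies inside it, was present in 6.85% of windows, among them 2 windows of Sgk1 and the window of Mt1. The level of Sgk1 given above did not separate knockout from control. Reads or probes specific to this start site were not measured.
Sgk1: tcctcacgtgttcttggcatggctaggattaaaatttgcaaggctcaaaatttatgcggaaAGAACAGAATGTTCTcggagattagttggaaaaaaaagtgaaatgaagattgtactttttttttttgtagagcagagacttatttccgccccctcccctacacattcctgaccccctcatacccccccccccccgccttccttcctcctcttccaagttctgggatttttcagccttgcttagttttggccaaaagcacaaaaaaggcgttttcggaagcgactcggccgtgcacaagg

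Klf9 encodes a Krüppel-like transcription factor that responds to glucocorticoid and thyroid hormones and acts on the clock and on proliferation. Its brighter probe had levels of 1.82 and 0.03 in white knockout, against 1.13 and 1.13 in white control. The 2 white knockout samples lay on opposite sides of the controls. The difference was -0.20 ± 0.55 (log2, SE; limma adjusted p = 0.880), and it was 0.69 without the knockout sample on arrays 2, 3 and 4. In brown fat the levels were 1.76 and 0.97 in knockout, against 1.76, 1.99 and 1.97 in control, with a difference of -0.54 ± 0.50 (limma adjusted p = 0.681). The difference was -0.15 without the brown knockout sample on arrays 2, 3 and 4 and -0.50 without the brown control sample on arrays 2 and 3. The second probe, A_51_P412200, gave -0.22 ± 0.65 in white fat and -0.44 ± 0.60 in brown fat. Klf9 was lowest in the knockout samples on arrays 2, 3 and 4, which also had the lowest adipocyte marker signal. The summed level of 12 adipocyte markers was 1250 and 1520 in those samples and 1890 to 2770 in the other 7 samples. They also had the highest summed levels of T, B and NK cell markers, 283 and 156. White control, next lowest in Klf9 at 1.13 and 1.13, had adipocyte marker sums of 2770 and 2340. The part of adipocyte or lymphocyte content in Klf9 was not tested.

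Sult1a1 encodes a phenol sulfotransferase that conjugates drugs, phenols and catecholamines. Its probe had levels of 3.10 and 2.41 in white knockout, against 4.81 and 4.65 in white control. In brown fat the levels were 2.36 and 2.27 in knockout, against 3.58, 3.46 and 3.97 in control. Every knockout sample lay more than 1 log2 unit below every control sample of its tissue. The difference was -1.97 ± 0.30 in white fat and -1.35 ± 0.27 in brown fat (log2, SE), that is a signal difference of -74.5% and -60.9%. By p it ranked 18 in white fat and 16 in brown fat among 15463 genes, yet the limma adjusted p was 0.215 and 0.619. With 16 arrays as separate samples the adjusted p was 5.65e-06 and 0.00156. Over all alternatives it ran from 5.48e-06 to 0.999 in white fat and from 0.00154 to 1 in brown fat, while the difference ran from -2.32 to -1.63 and from -1.46 to -0.92.

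In the white knockout sample on array 1, the adipocyte marker sum was 2600, against 2770 and 2340 in white control, and Sult1a1 differed from the control mean by -1.63. In that sample 6 of 12 adipocyte markers lay below the control mean and 6 above, with a median difference of -0.0080. Retn and Lep, the markers with the smallest p in white fat, stood there at 4.91 and 0.58. Their white control levels were 7.03 and 6.61 for Retn and 2.44 and 1.76 for Lep. The part of adipocyte content in Sult1a1 was not tested. Without the brown knockout sample on arrays 2, 3 and 4 the brown difference was -1.31. It was -1.46 in brown fat without the brown control sample on arrays 2 and 3. Within the slide that held both groups it was -1.96 in white fat and -1.39 in brown fat. The effect in brown fat minus that in white fat was 0.62 ± 0.40 (limma, adjusted p of 1). Among 6 tested relatives, other sulfotransferases and the enzymes that make their sulfate donor, 3 had a lower mean in each tissue, with medians of -0.08 in white fat and -0.02 in brown fat, or 5 in white fat and 0 in brown fat without scaling. The brown count was 5 with the brown control sample on arrays 2 and 3 left out. None passed the limma threshold. Sult1c1 had the smallest p in white fat, with levels of -2.87 and -2.65 in knockout, against -1.9999 and -1.7763 in control.

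Mt1 and Mt2 encode metallothioneins, small cysteine-rich proteins that bind zinc and copper and are induced by metals as well as by glucocorticoids. Mt1 had levels of 3.18 and 2.56 in white knockout, against 3.45 and 3.34 in white control. In brown fat its levels were 3.38 and 2.53 in knockout, against 3.32, 2.89 and 4.33 in control. Mt2 had levels of 3.38 and 2.75 in white knockout, against 3.49 and 3.42 in white control. In brown fat its levels were 3.45 and 2.56 in knockout, against 3.85, 3.02 and 4.49 in control. For both genes white knockout lay below white control, the brown groups overlapped, and the highest sample was brown control array 4. The white gap of Mt2 was narrow, and the lowest single white control array, at 3.3174, was below the knockout sample on array 1, at 3.3815.

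The Mt1 difference was -0.53 ± 0.52 in white fat and -0.56 ± 0.47 in brown fat (log2, SE), with limma adjusted p of 0.684 and 0.664. The Mt2 difference was -0.39 ± 0.52 and -0.78 ± 0.47, with limma adjusted p of 0.757 and 0.619. Without the knockout samples on arrays 2, 3 and 4 the Mt1 difference was -0.22 in white fat and -0.13 in brown fat, and the Mt2 difference was -0.08 and -0.34. Without the brown control sample on arrays 2 and 3 the brown differences were -0.87 for Mt1 and -1.17 for Mt2. A second probe mapped to Mt1, A_52_P423810, through a predicted transcript, was dim and gave -0.59 ± 0.43 and -0.83 ± 0.39. Of 12 other metal response genes, 8 had a lower mean in each tissue, with medians of -0.08 in white fat and -0.04 in brown fat, or 9 in white fat and 0 in brown fat without scaling. The brown count was 5 without the brown control sample on arrays 2 and 3, and none passed the limma threshold.

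The 2 metallothioneins followed each other closely over the 9 samples. After centring each gene on its own mean, they differed by 0.10 log2 units on average, and each was the nearest of 15443 genes to the other, where the median gene lay 0.53 from Mt1 and 0.55 from Mt2. These are values over samples that share arrays and groups, given as a description. The transcripts are alike in sequence, and whether each probe reads a single gene was not tested. The promoter windows of both genes (RefSeq, GRCm38.p6, Mt1 at chr8:94178839-94179138 and Mt2 at chr8:94172368-94172667, plus strand) are shown because both hold several copies of the metal response core, TGCACNC or TGCGCNC on either strand, in capitals. Mt1 held 3, starting at positions -23, 2 and 20, and Mt2 held 4, starting at -223, -128, -50 and 4. At least 1 such core was present in 25.7% of all windows. Among them were the Dusp1 window, with a core at position -6, and a window of Sgk1 other than that shown. The share of windows with several copies was not counted. Mt1 also held a glucocorticoid core at position -92, and Mt2 held none in this window.
Mt1: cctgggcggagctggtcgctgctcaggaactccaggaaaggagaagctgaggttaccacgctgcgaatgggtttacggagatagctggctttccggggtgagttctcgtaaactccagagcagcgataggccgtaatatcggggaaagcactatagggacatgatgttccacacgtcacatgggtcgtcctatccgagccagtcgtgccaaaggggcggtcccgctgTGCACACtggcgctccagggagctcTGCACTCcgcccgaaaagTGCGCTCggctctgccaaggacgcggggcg
Mt2: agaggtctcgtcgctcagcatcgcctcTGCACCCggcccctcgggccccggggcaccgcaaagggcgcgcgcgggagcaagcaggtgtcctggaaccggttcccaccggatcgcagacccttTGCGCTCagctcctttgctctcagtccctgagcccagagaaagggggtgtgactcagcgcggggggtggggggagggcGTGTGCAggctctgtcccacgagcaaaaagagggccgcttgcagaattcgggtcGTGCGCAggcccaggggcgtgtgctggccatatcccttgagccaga

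**Figure D3:**
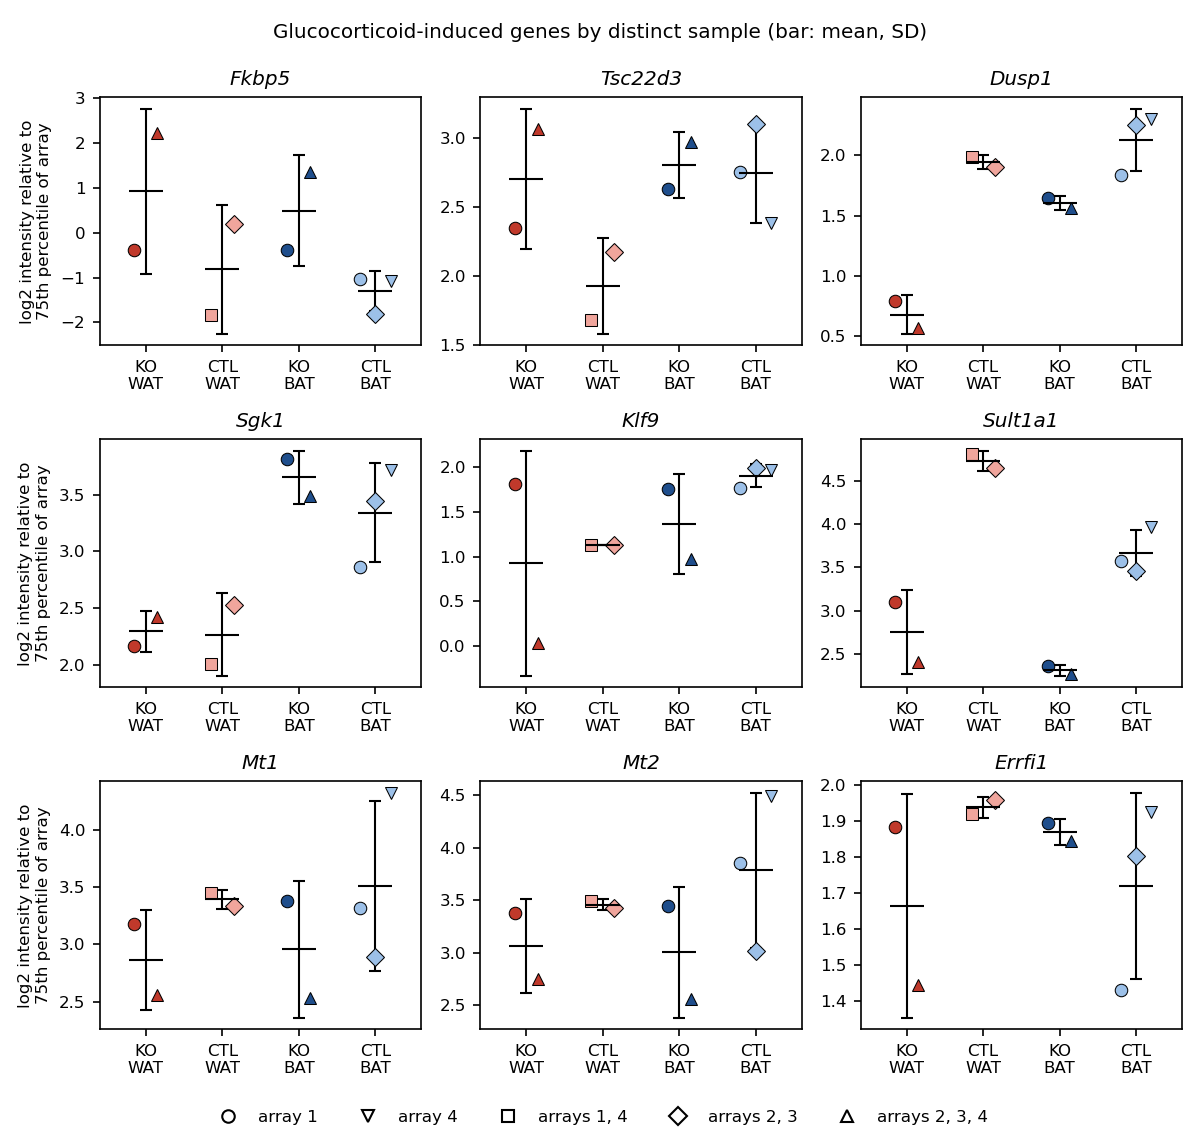
Levels of the 9 glucocorticoid-induced genes (log2 intensity relative to the 75th percentile of the array) in each distinct sample of knockout (KO) and control (CTL) white and brown fat. Points are samples, marked by the arrays averaged in them, and bars are the mean and SD (n = 2, or 3 in CTL BAT). Sult1a1 and Dusp1 separate knockout from control in both tissues, and the Mt1 and Mt2 panels have nearly the same shape.

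Between tissues, no gene of the set passed the limma threshold in either genotype, where 5.1% of all tested genes passed between brown and white control and 1.51% between brown and white knockout. At an unadjusted p below 0.05 the counts were 3 of 9 and 2 of 9, against 22.8% and 15.3% of all tested genes. Sgk1 was higher in brown fat in both genotypes. Its mean was 3.65 ± 0.24 (SD, n = 2) in brown knockout and 2.29 ± 0.18 (SD, n = 2) in white knockout, a difference of 1.36 ± 0.34 (limma adjusted p = 0.136). In controls the mean was 3.34 ± 0.44 (SD, n = 3) in brown fat and 2.27 ± 0.37 (SD, n = 2) in white fat, a difference of 1.08 ± 0.31 (limma adjusted p = 0.105). That difference was 1.03 without the brown control sample on arrays 2 and 3. Brown samples carried skeletal muscle signal, as given above, and its part in the tissue differences was not tested.

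Sult1a1 was lower in brown than in white control, at 3.67 ± 0.27 (SD, n = 3) against 4.73 ± 0.12 (SD, n = 2), a difference of -1.06 ± 0.27 (limma adjusted p = 0.0769). In knockouts the means were 2.31 ± 0.07 in brown fat and 2.76 ± 0.49 in white fat (SD, n = 2 each), a difference of -0.44 ± 0.30. Its order of group means was therefore white control, brown control, white knockout and brown knockout, and only the last pair were closer than the wider of their SDs. Dusp1 did not separate brown from white control, at 2.13 ± 0.26 (SD, n = 3) against 1.95 ± 0.06 (SD, n = 2), but brown knockout was above white knockout, at 1.61 ± 0.06 against 0.68 ± 0.16 (SD, n = 2 each), a difference of 0.93 ± 0.24 (limma adjusted p = 0.136). Tsc22d3 was higher in brown than in white control, with a difference of 0.82 ± 0.33 (limma adjusted p = 0.198). Klf9 was higher in all 3 brown control samples than in both white control samples, with a difference of 0.78 ± 0.50 (limma adjusted p = 0.395). Leaving out the brown control sample on arrays 2 and 3 gave -0.96 for Sult1a1, 0.64 for Tsc22d3 and 0.74 for Klf9 between control tissues. With 16 arrays and the replicate number as a block, the adjusted p between brown and white knockout was 0.000357 for Dusp1 and 0.00114 for Sgk1 (limma), where 25.3% of all tested genes passed. That fit counts repeat arrays as samples, as does the fit of 16 arrays without the block, where these 2 of 9 also passed and 25.8% of all tested genes did, and the fit with a random slide, where it was 26.1%. Between control tissues 3, 4 and 3 of 9 passed with 16 arrays, the replicate block and the random slide, where 39.3%, 40.0% and 39.7% of all tested genes passed. The count there was 1 of 9 in the authors' unscaled values, where 6.06% passed, 1 of 9 without either white knockout sample in turn, where 11.4% passed, and 2 of 9 without both knockout samples on arrays 2, 3 and 4, where 15.2% passed. The knockout effect differed between tissues for 0 of 9 genes, where 0.0% of all tested genes passed, and for Dusp1 with 16 arrays or a random slide, where 4.14% and 4.38% passed. No gene of the set had an unadjusted p below 0.05 for that difference, against 2.6% of all tested genes.

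The genes most like the 4 most variable members were found by the mean absolute difference of centred log2 levels over the 9 samples. Nearest to Fkbp5 were Kcnab2, a potassium channel subunit, at 0.25 and Matk, a kinase of blood cells, at 0.25, where the median gene lay at 1.17. Both peaked in the same 2 knockout samples as Fkbp5, with Kcnab2 at 0.71 and Matk at 0.65 in the white sample and 0.08 and -0.31 in the brown sample. Nearest to Sult1a1 were Cela1, an elastase, at 0.16 and Lbp, the lipopolysaccharide binding protein, at 0.20. Cela1 had levels of -0.87 and -1.48 in white knockout, against 1.05 and 0.84 in white control, and of -2.07 and -1.26 in brown knockout, against -0.35, -0.62 and -0.01 in brown control. Lbp had levels of 0.54 and -0.27 in white knockout, against 2.19 and 2.32 in white control, and of -0.92 and 0.21 in brown knockout, against 0.95, 0.74 and 1.40 in brown control. Nearest to Klf9 were Map1lc3a, an autophagy gene, and Zfp30, a zinc finger gene, both at 0.11. Nearest to Sgk1 were Hnf4aos at 0.13 and Krt71 at 0.17, both dim, with levels between -7.31 and -4.64 over the samples.

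A further list of 41 glucocorticoid-induced genes was measured for comparison, of which 39 were tested. None passed the limma threshold in either tissue. In white fat 24 of 39 had a lower mean in knockout, with a median of -0.44 against -0.03 over all tested genes. In brown fat 29 of 39 had a lower mean, with a median of -0.43 against -0.12 over all tested genes. Without scaling between arrays the brown count was 20 of 39, with a median of -0.0036 against 0.31 over all tested genes. A lower mean in both tissues was found for 22 of 39, and a higher mean in both for 8 of 39. Without the knockout samples on arrays 2, 3 and 4 the white count was 18 of 39 with a median of 0.03, and the brown count was 21 of 39 with a median of -0.12. Over all tested genes the medians were then -0.06 in white fat and -0.05 in brown fat. Adipocyte markers had a lower mean in knockout in 12 of 12 genes in each tissue, with medians of -0.78 in white fat and -0.27 in brown fat. Without the same knockout samples they had a lower mean in 6 of 12 in white fat and 8 of 12 in brown fat, with medians of -0.0080 and -0.0975. Skeletal muscle markers had a lower mean in brown knockout in 13 of 13 genes, with a median of -0.81. In white knockout 2 of 13 had a lower mean, with a median of 0.58. Counts of both marker sets are relative to the scaling of each array, and unscaled counts are not given here. The highest brown difference was -0.03 among adipocyte markers, for Pparg, and -0.31 among muscle markers, for Myh7. Without scaling the median of all tested genes in brown fat was 0.31. The part of either set of markers in the values of the list was not tested. Without the brown control sample on arrays 2 and 3 the brown count of the list was 30 of 39.

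Lpin1, a phosphatidate phosphatase of triglyceride synthesis, had levels of 3.29 and 2.54 in white knockout, against 3.86 and 3.88 in white control, a difference of -0.95 ± 0.29 (limma adjusted p = 0.427). In brown fat its levels were 3.53 and 3.27 in knockout, against 3.83, 3.91 and 4.10 in control. Lox, a collagen crosslinking enzyme, had levels of -1.27 and -2.88 in white knockout, against -0.45 and -0.52 in white control, a difference of -1.59 ± 0.48. Gadd45g, a stress response gene, had levels of 4.43 and 4.83 in brown knockout, against 5.30, 5.43 and 5.13 in brown control, a difference of -0.66 ± 0.31. The list ran from -1.59 for Lox to 1.47 for Fbxo32, an E3 ubiquitin ligase, in white fat, and Ddit4 had the highest value in brown fat, at 1.16. These extremes were picked after their values were seen.

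**Figure D4:**
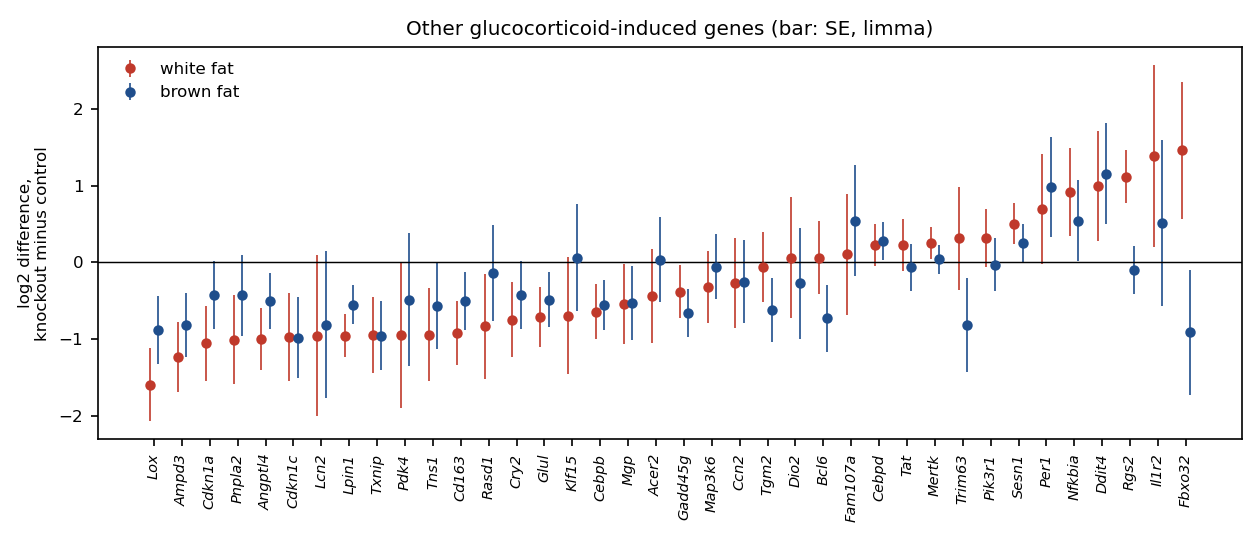
Log2 difference, knockout minus control, of 38 of the 39 other glucocorticoid-induced genes in white fat (red) and brown fat (blue), ordered by the white value, with bars of 1 SE from the limma fit. In white fat 23 of those plotted lie below 0 and 15 above, and in brown fat 28 lie below 0 and 10 above.

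The genes that supply the receptor with hormone and partners were also measured together with the corticosteroid receptor genes, 17 of 18 of them tested. The list includes Nr3c1, the targeted gene, which counts among the lower genes in each tissue. In white fat 8 had a lower mean in knockout and in brown fat 13, or 10 and 3 without scaling between arrays, and 13 in brown fat without the brown control sample on arrays 2 and 3, and none passed the limma threshold. Hsd11b1, which regenerates active glucocorticoid inside fat cells, had levels of 1.505 and 1.986 in white knockout, against 3.97 and 3.88 in white control. In brown fat its levels were 1.94 and 3.09 in knockout, against 3.98, 3.25 and 4.51 in control. The difference was -2.18 ± 0.50 in white fat and -1.40 ± 0.46 in brown fat (limma adjusted p = 0.386 and 0.619), and -1.73 in brown fat without the brown control sample on arrays 2 and 3. Relatives of the set, mostly other Fkbp immunophilins and Krüppel-like factors, had a lower mean in 21 of 32 genes in white knockout, with a median of -0.20. In brown knockout the count was 22 of 32 with a median of -0.22, or 9 of 32 without scaling between arrays and 22 of 32 without the brown control sample on arrays 2 and 3. The smallest p values among them belonged to Zbtb7b in white fat, at 0.95 and 0.49 in knockout against 1.62 and 1.34 in control, and to Klf2 in brown fat, at 6.61 and 6.60 in knockout against 7.08, 7.12 and 7.04 in control.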

How the data were processed

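Per the labels, total RNA came from a Qiagen RNeasy preparation, and its cRNA carried Cy3 (1 colour). Per the file headers, spot values come from Agilent Feature Extraction, version 12.0.0.7, and the deposited intensity of each spot is linear, background-subtracted and not scaled between arrays. The authors' table holds the mean intensity of each probe, equal to the scanner values within 1% for all 41174 probes.

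Outlier spots were dropped, spots of a probe were averaged, and log2 intensity was set relative to the array's 75th percentile. Accessions named 28215 probes (19092 symbols, RefSeq table of GRCm38.p6). Probes well above background on all 4 arrays of a group were kept, and the brightest kept probe stood for its gene. Arrays of a group were averaged where the scaled median absolute deviation of their differences, divided by the scanner's error over 10067 bright probes, was below 1. Repeat pairs had ratios of 0.373 to 0.656 and other pairs 1.10 to 4.28. The white control pairs not counted as repeats had ratios of 1.10 to 1.26, so the division of that group into 2 samples was close to the threshold. An alternative added after seeing the data counted white control as 1 sample. The white differences were then again -1.97 for Sult1a1 and -1.27 for Dusp1.

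limma 3.58.1 (R 4.3.3) fitted a mean for each of 4 groups, with 5 residual degrees of freedom, in 5 contrasts. P-values were adjusted by Benjamini-Hochberg over all tested genes at 0.05. The fit was tested on simulated data. Members and gene lists were chosen with earlier results of these data known. The text names all members with every probe, Nr3c1, of each list up to 3 genes that passed or, where none did, up to 2 by smallest unadjusted p in the knockout contrasts, marker genes beside a result, and the 2 genes most like each of the 4 most variable members. Not every list gene that this rule gives is named. Alternatives were other sample definitions, blocks for replicate number and slide, background, scaling, filter and probe rules, and each sample left out. A single gene of the further list is counted but not reported here by name or plotted. The planned normexp background used the median spot signal, the column present in the files. Same-numbered arrays deviated together between brown and white knockout (correlations of 0.295 to 0.570), where arrays 2, 3 and 4 are repeats in both groups. In the other 3 comparisons correlations ran down to -0.538. The numbers were not taken as pairs in the fit to distinct samples, for any comparison. No label says whether white and brown fat came from the same animals, so results in both tissues may not be independent.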

Additional observations from a re-analysis of the deposited data

How the results depend on the processing

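No member passed the limma threshold in the 9-sample fit in any of 5 comparisons. Counts of members that passed (adjusted p below 0.05) changed as follows. With 16 arrays as separate samples, 5 passed in white fat, 3 in brown fat, 1 for the difference between tissue effects, 3 between control tissues and 2 between knockout tissues. In that order 44.8%, 30.6%, 4.14%, 39.3% and 25.8% of all tested genes passed. With the replicate block the counts were 5, 4, 0, 4 and 2, and 46.0% and 32.2% of all tested genes passed in white and brown fat. With the slide as a random block they were 5, 3, 1, 3 and 2, and 45.2% and 30.6% passed in white and brown fat. With the slide as a fixed block 2 passed in white fat, where 1.25% of all tested genes passed. Shares for the other counts stand with the results above. Between control tissues 1 passed in the authors' unscaled values and 2 without both knockout samples on arrays 2, 3 and 4, a setting chosen after seeing the data. Leaving out each sample gave 0 to 2 in white fat and 0 to 1 between control tissues. Same-numbered arrays correlated at -0.519 to 0.411 in white fat, -0.538 to -0.041 in brown fat and -0.13 to 0.183 between control tissues, and 0, 0 and 1 of 4 correlated best with their own number. Of 900 values under alternatives, 784 kept direction and call, 52 passed the threshold only under the alternative and 64 changed sign, listed here singly or, for samples left out, as a range. In white fat Sgk1 was at -0.17 unscaled and -0.098 without both knockout samples, and Klf9 at 0.69 without them. In brown fat Tsc22d3 was at -0.0018 with the mean of probes and -0.11 without both knockout samples, and Errfi1 at -0.0004 with the slide fixed. For the brown effect minus the white effect, Fkbp5 was at -0.033 with 16 arrays or the replicate block, -0.040 with a random slide, -0.14 with normexp and -0.20 with the mean of probes. Mt1 was at 0.070 with 16 arrays or the replicate block, 0.076 with a random slide, 0.13 with normexp, 0.084 with quantile scaling, 0.60 unscaled and 0.087 without both knockout samples. Unscaled, Klf9 was at 0.29 and Mt2 at 0.24. For brown minus white control, Fkbp5 was at 0.18 with the mean of probes, and Dusp1 at -0.16 and Mt2 at -0.0145 unscaled. Mt1 was at -0.039 with 16 arrays or the replicate block, -0.040 with a random slide, -0.018 with normexp, -0.01 with quantile scaling and -0.23 unscaled. For brown minus white knockout, Tsc22d3 was at -0.0012 with a random slide, Klf9 at -0.057 without both samples and Mt1 at -0.080 with the slide fixed. Mt2 was at 0.0245 with normexp, 0.22 unscaled and 0.065 without both samples. Leaving out each sample in turn gave -0.23 to 0.29 for Sgk1 and -1.09 to 0.69 for Klf9 in white fat, and -0.13 to 0.23 for Tsc22d3 in brown fat. For the difference between tissue effects it gave -1.25 to 1.36 for Fkbp5, -1.23 to 0.55 for Klf9, -0.45 to 0.40 for Mt1 and -0.83 to 0.053 for Mt2. Between control tissues it gave -1.51 to 0.53 for Fkbp5, -0.29 to 0.43 for Mt1 and -0.023 to 0.71 for Mt2. Between knockout tissues it gave -1.74 to 0.87 for Fkbp5, -0.26 to 0.45 for Tsc22d3, -0.45 to 1.33 for Klf9, -0.34 to 0.52 for Mt1, -0.50 to 0.38 for Mt2 and -0.014 to 0.43 for Errfi1. The causes were not tested. Counting repeat arrays raises the sample number and also gives more weight to samples held on several arrays. With 16 arrays as separate samples the Fkbp5 difference was 2.39 in white fat and 2.36 in brown fat, against 1.74 and 1.80 in the 9-sample fit. Group sizes of 2 or 3 distinct samples limit the precision, and where a sample left out leaves 1 in a group, that sample is assumed to vary like the others.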
